A study of Mus musculus with 12 samples.

Results

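Brown adipose tissue of mice with a knockout (KO) of Zbtb7b was compared with that of wild-type (WT) mice after 4 h at 4 °C. The 3 arrays titled as KO cold brown fat were set against the 3 titled as WT cold brown fat, which are 6 of the 12 arrays of the study. The mice were male, 10 weeks old and fed standard chow. The other 6 arrays, 3 WT and 3 KO from mice kept at 22 °C (room temperature), were used for the spread and for a comparison side by side. The strain, the allele and the cell type in which the gene is lost are not stated in the labels. Arrays of 1 group are titled as biological replicates, but a further label field gives pool numbers. How many animals an array stands for is therefore unknown, and p-values cover only the spread among these samples, which may be technical.

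Brown fat burns fatty acids and glucose to make heat through the uncoupling protein Ucp1. In the cold, noradrenaline from sympathetic nerves activates the adipocytes, which induce genes of heat production, fatty acid elongation and glucose uptake within hours. Zbtb7b encodes a zinc finger transcription factor, also called ThPOK, best known for directing the development of CD4 T cells. In bulk tissue, fewer cells of a type and less RNA per cell cannot be told apart.

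The values were log2 signals of 22180 genes, with precision limited by the number of arrays. The median signal of an array lay between 2.63 and 2.83, so genes with a group mean under 4 are given with log2 differences and no fold. One label field names liver and another knockout. Ucp1 lay between 11.55 and 12.95 on all 12 arrays, while the mean of 19 hepatocyte genes on the cold arrays lay between 2.79 and 2.94, near the median of all genes, and albumin (Alb) between 1.20 and 2.31. The KO cold arrays stood further apart from each other than the WT cold arrays. For 8475 bright genes (mean signal 5 or more), each cold array was set against the mean of the other 2 arrays of its group. KO cold replicates 1, 2 and 3 differed from that mean by more than 1 at 442, 129 and 304 genes. For WT the counts were 58, 20 and 51. The skeletal muscle list mean, a marker of neighbouring tissue in a dissection, ranged from 5.03 to 7.61 in WT and from 4.49 to 8.28 in KO, and 0 of its 23 genes passed the test.

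Zbtb7b had a log2 signal of 4.36, 4.26 and 4.63 on the 3 WT cold arrays and of 2.96, 3.38 and 3.01 on the KO cold arrays. All 3 KO arrays lay below all 3 WT arrays, and near the median of all genes. The difference, KO minus WT, was -1.30 ± 0.16 (SE, n = 3 per group, adjusted p = 0.00365). Each SE in this report uses a spread estimated over all 4 groups. It can be too small for genes that vary more among the KO cold arrays than in the other groups. It is not known whether its probes fall within the deletion. Of 21 measured genes in and around this locus on chromosome 3, 1 was higher and 2, with Zbtb7b among them, were lower in KO. Dcst1, which encodes a membrane protein of the DC-STAMP family, had signals of 2.13, 3.15 and 3.29 in WT and of 6.44, 6.72 and 6.49 in KO. This was the largest difference of any gene that passed (3.70 ± 0.25, adjusted p = 5.14e-05), from the median level in WT to a clear signal in KO. Dcst2, which lies between Dcst1 and Zbtb7b and overlaps Dcst1 in the annotation, was lower on all 3 KO arrays, with 5.08, 5.04 and 4.78 in WT against 3.32, 3.45 and 3.42 (-1.57 ± 0.15, adjusted p = 6.45e-04).

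In total 202 of 22180 genes (0.911%) passed in the cold at an adjusted p under 0.05. Of these, 80 (0.361%) were higher and 122 (0.55%) lower in KO, and 106 differed by at least 1 on the log2 scale. In all 202 genes the KO and WT cold arrays did not overlap, against 20.6% of all genes. For a gene that passed, the lack of overlap therefore adds no further support. At an unadjusted p under 0.05 there were 3197 genes, and the median difference over all genes was 0.00956. With arrays brought together by cyclic loess, 107 genes passed as higher and 103 as lower. The count changed as single arrays were left out. It was 36, 51 and 85 without WT cold replicate 1, 2 and 3, and 89 without KO cold replicate 3. It was 268 without KO cold replicate 1, 289 without KO cold replicate 2 and 163 to 190 without 1 room temperature array. From the 6 cold arrays alone, with the spread taken from them only, 32 genes passed. Fewer arrays also make the test harder to pass. Mc2r was lost without any 1 of the room temperature arrays, though its difference of 1.28 does not use them. Of the 202 genes, 28 (11 higher, 17 lower) passed in each of the 12 fits that left out 1 array. With both KO cold replicates 1 and 3 left out, 1 KO cold array remained. The differences of the 202 genes then had a median ratio of 0.93 to those with all arrays. The remaining cold arrays also took part in selecting the 202 genes, so this ratio is no independent support.

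**Figure D1:**
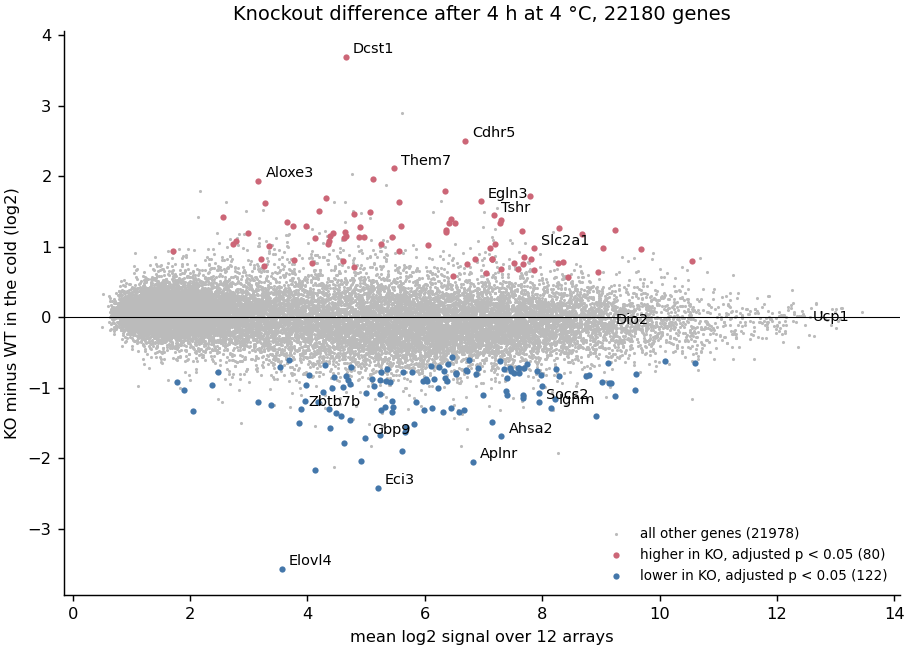
Difference between KO and WT in the cold (log2, vertical axis) against the mean log2 signal over 12 arrays (horizontal axis), 1 point per gene. Red points are the 80 genes higher and blue points the 122 genes lower, by an adjusted p under 0.05. Dcst1 lies at the top and Elovl4 at the bottom, while Ucp1 and Dio2 lie near 0.

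The genes of fatty acid handling did not move as a group, and single enzymes differed strongly. Of 20 measured genes of the elongation cycle and the desaturases, 1 was lower and 1 higher in KO, with a median of 0.07. Elovl4, an elongase that makes very long chain fatty acids, had signals of 6.72, 6.32 and 6.73 on the WT cold arrays and of 3.85, 2.62 and 2.60 on the KO cold arrays. The KO arrays lay far below every WT array, and on the 6 room temperature arrays the signal was between 1.76 and 2.96, so a clear signal was seen on the WT cold arrays only. The difference in the cold was -3.57 ± 0.32 (adjusted p = 3.69e-04). Elovl2, an elongase of polyunsaturated fatty acids, was higher in KO on a low level, with 3.54, 4.05 and 3.70 in WT against 4.52, 4.55 and 4.66 (0.81 ± 0.14, adjusted p = 0.0170). Elovl3, the elongase that brown fat induces in the cold, had signals of 10.40, 10.43 and 10.73 in WT and of 8.81, 9.51 and 9.29 in KO. The groups did not overlap, as was the case for 20.6% of all genes, and the difference of -1.32 ± 0.32 did not pass (adjusted p = 0.0836), though it did without KO RT replicate 3 (0.0263). Elovl2 did not pass without WT cold replicate 1 (adjusted p = 0.0885) or 3 (0.0762) or KO cold replicate 3 (0.0606), while Elovl4 passed in each of the 12 fits.

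Of 22 measured genes on the fatty acid oxidation list, 0 were higher and 1 was lower, with a median of -0.14. Eci3, an enoyl-CoA isomerase that handles double bonds in fatty acid breakdown, had signals of 6.59, 6.29 and 5.97 in WT and of 3.86, 4.01 and 3.72 in KO. All 3 KO arrays lay below all 3 WT arrays, and the difference was -2.42 ± 0.23 (adjusted p = 5.74e-04). Of 16 thioesterase genes, whose enzymes split acyl-CoA into free fatty acid and coenzyme A, 2 were higher and 0 lower. Them7 stood at 4.25, 4.07 and 4.60 in WT and at 6.42, 6.39 and 6.46 in KO, 4.33-fold higher (2.12 ± 0.17, adjusted p = 1.65e-04). Acot1, a cytosolic acyl-CoA thioesterase, stood at 3.46, 3.63 and 4.13 in WT and at 5.04, 5.49 and 5.79 in KO (1.70 ± 0.31, adjusted p = 0.0251). Both thioesterases separated the groups without overlap. Cyp4a14, which hydroxylates fatty acids at the omega end, was also higher, from 3.64, 3.59 and 4.06 to 4.93, 5.37 and 5.04 (1.35 ± 0.20, adjusted p = 0.0114). Acot1 and Cyp4a14 have close paralogues, and how far the probe sets tell them apart was not tested. Acot1 did not pass without WT cold replicate 1 (adjusted p = 0.113) or 2 (0.102) or KO cold replicate 2 (0.0503) or 3 (0.0813), and Cyp4a14 not without WT cold replicate 1 (0.0620) or 2 (0.0577).

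Among 21 genes of fatty acid and triacylglycerol synthesis, only Gpam passed, and it was lower. Gpam, the mitochondrial acyltransferase that starts glycerolipid synthesis, had signals of 11.25, 11.27 and 11.27 in WT and of 10.79, 10.58 and 10.49 in KO, 1.56-fold lower (-0.64 ± 0.12, adjusted p = 0.0332). Among 23 genes of lipolysis, lipid droplets and lipid uptake only Vldlr, a receptor for triacylglycerol-rich lipoproteins, passed, and it was higher, with 7.67, 7.61 and 7.79 in WT against 8.41, 8.78 and 9.42 (1.18 ± 0.20, adjusted p = 0.0200). Sgms2, a sphingomyelin synthase, was 2.77-fold higher (1.47 ± 0.24, adjusted p = 0.0161). In each of the 3 genes the groups did not overlap. Without WT cold replicate 1, 2 or 3 none of them passed, with adjusted p-values of 0.121, 0.131 and 0.120 for Gpam, 0.0888, 0.0916 and 0.0614 for Vldlr and 0.0751, 0.0709 and 0.0580 for Sgms2. Gpam also did not pass without WT RT replicate 1 (0.0529), KO RT replicate 1 (0.0512) or KO cold replicate 2 (0.0650) or 3 (0.0914), and Sgms2 not without KO cold replicate 3 (0.0606).

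**Figure D2:**
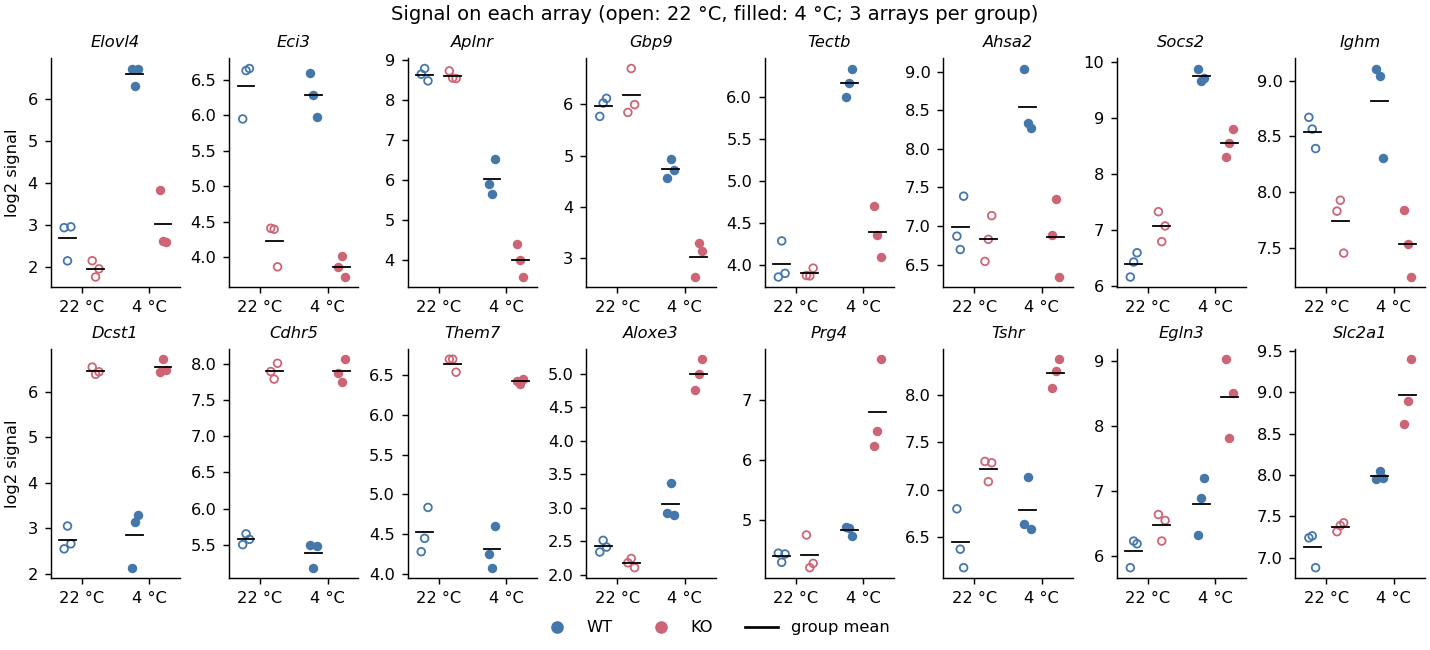
Log2 signal on each of the 12 arrays (points, vertical axis) for 16 genes that passed in the cold, with WT in blue, KO in red and a line at each group mean. Elovl4 stood above 6 on the WT cold arrays only, Eci3 and Dcst1 differed at both temperatures, and Aplnr was between 8.49 and 8.80 on all 6 room temperature arrays and lower on the cold arrays, most of all in KO.

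Genes of glucose use differed in both directions. Hypoxia-inducible factors drive many genes of glucose uptake and glycolysis by binding a core written ACGTG. Of 32 measured genes of hypoxia sensing and its targets, 2 were higher and 1 was lower in KO, with a median of 0.16. The windows of 250 bases upstream of the annotated start of these 3 genes, from RefSeq in GRCm38.p6, are shown because each holds ACGTG, searched on both strands and set in capitals. The core lies 229 bases upstream of the start in Egln3, 36 in Slc2a1 and 60 in Pfkfb3, at the first of its starts in the table.
Egln3, chr12:54203875-54204124, minus strand: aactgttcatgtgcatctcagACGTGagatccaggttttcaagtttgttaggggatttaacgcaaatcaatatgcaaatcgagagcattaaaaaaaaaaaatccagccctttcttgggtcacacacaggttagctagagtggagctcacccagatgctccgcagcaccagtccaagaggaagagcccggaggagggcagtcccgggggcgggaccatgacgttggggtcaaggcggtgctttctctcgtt
Slc2a1, chr4:119108495-119108744, plus strand: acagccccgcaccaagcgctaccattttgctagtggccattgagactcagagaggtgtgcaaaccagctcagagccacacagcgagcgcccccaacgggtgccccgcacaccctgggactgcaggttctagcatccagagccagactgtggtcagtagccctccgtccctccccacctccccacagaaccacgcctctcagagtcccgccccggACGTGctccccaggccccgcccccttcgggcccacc
Pfkfb3, chr2:11553930-11554179, minus strand: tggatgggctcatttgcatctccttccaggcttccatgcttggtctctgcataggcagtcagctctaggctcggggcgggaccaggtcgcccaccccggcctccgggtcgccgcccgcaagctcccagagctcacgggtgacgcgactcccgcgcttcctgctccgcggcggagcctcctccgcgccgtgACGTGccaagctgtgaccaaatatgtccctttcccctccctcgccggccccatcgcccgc
The same letters stand in 16.6% of 32817 such windows, in 1 window or more of 18.5% of all genes and of 19 of the 29 listed hypoxia genes with an entry. A match is a description of the sequence and not a shown binding site.

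Egln3, a hydroxylase that marks hypoxia-inducible factors for breakdown when oxygen is present, had signals of 6.33, 6.90 and 7.19 in WT and of 9.02, 7.82 and 8.51 in KO, 3.13-fold higher (1.65 ± 0.29, adjusted p = 0.0204). Slc2a1, the glucose transporter GLUT1, stood at 7.95, 8.04 and 7.97 in WT and at 8.61, 8.89 and 9.40 in KO, 1.98-fold higher (0.98 ± 0.18, adjusted p = 0.0278). Pfkfb3, whose product makes the allosteric activator of phosphofructokinase, went the other way, with 9.99, 9.89 and 9.75 in WT against 8.96, 8.96 and 8.35 in KO, 2.17-fold lower (-1.12 ± 0.20, adjusted p = 0.0249). The 3 genes with the same core upstream thus did not move in 1 direction, and in none of them did the groups overlap. Of 21 genes of glucose and lactate transport and glycolysis, Slc2a1 and Pfkfb3 were the only ones that passed, and the list median was -0.20. A dimmer second probe set of Slc2a1, with a mean signal of 1.77, stood at 0.18 (adjusted p = 0.741). Neither Egln3, Slc2a1 nor Pfkfb3 passed without WT cold replicate 1 (adjusted p = 0.0953, 0.111 and 0.111), WT cold replicate 2 (0.0727, 0.0928 and 0.0979) or KO cold replicate 3 (0.0658, 0.0606 and 0.0658). Without WT cold replicate 3, Slc2a1 (0.104) and Pfkfb3 (0.0676) did not pass.

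Of 23 genes of glycogen metabolism only Gys2, a glycogen synthase, passed in the cold. It had signals of 8.36, 8.44 and 8.52 in WT and of 7.21, 7.20 and 6.47 in KO, 2.79-fold lower (-1.48 ± 0.26, adjusted p = 0.0201). It did not pass without WT cold replicate 1, 2 or 3 (adjusted p = 0.0833, 0.0813 and 0.0839) or KO cold replicate 3 (0.0624). Of 30 genes of pyruvate dehydrogenase and the tricarboxylic acid cycle, Got2, the mitochondrial aspartate aminotransferase, was 1.74-fold higher in KO (0.80 ± 0.13, adjusted p = 0.0140), with 10.13, 10.03 and 10.29 in WT against 10.80, 11.04 and 10.99. Got2 did not pass without WT cold replicate 1 (0.0751) or 2 (0.0703), and its dimmer second probe set stood at 0.35 (adjusted p = 0.417). Of 47 nuclear genes of oxidative phosphorylation and 22 of branched-chain amino acid breakdown 0 passed, with medians of -0.09 and -0.07.

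Several receptors and signalling genes differed. Aplnr, the receptor for apelin on endothelial cells, was the only 1 of 35 angiogenic ligands and receptors that passed. Its signals were 5.90, 5.65 and 6.53 on the WT cold arrays and 4.40, 3.98 and 3.56 on the KO cold arrays (-2.05 ± 0.24, adjusted p = 0.00276). All 6 cold arrays lay below the 6 room temperature arrays, which were between 8.49 and 8.80, and the KO cold arrays were the lowest. Tek, the receptor for angiopoietins, stood at -0.88 ± 0.19 and did not pass (adjusted p = 0.0533), except in settings such as bright genes alone (0.0266) or without KO cold replicate 1 (0.0254). The endothelial list had 0 of 18 genes past the test and a median of -0.02. Its mean per array was 7.90 to 7.97 in WT and 7.67 to 8.03 in KO, so the groups overlapped.

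Receptors for 3 peptide hormones of the brain and pituitary were higher in KO. Tshr, the receptor for thyroid-stimulating hormone, had signals of 6.64, 7.14 and 6.58 in WT and of 8.07, 8.25 and 8.38 in KO, 2.73-fold higher (1.45 ± 0.19, adjusted p = 0.00533). Mc2r, the receptor for corticotropin, stood at 3.99, 4.61 and 3.64 in WT and at 5.11, 5.09 and 5.88 in KO (1.28 ± 0.26, adjusted p = 0.0394). Hcrtr1, an orexin receptor, was near the median of all genes in WT at 2.13, 2.18 and 2.60 and reached 3.23, 3.69 and 4.26 in KO (1.42 ± 0.23, adjusted p = 0.0149). Tshr passed in each of the 12 fits that left out 1 array. Mc2r did not pass in 9 of them, which left out each RT array and WT cold replicate 1 or 3 or KO cold replicate 3, with adjusted p-values up to 0.156. Hcrtr1 did not pass without WT cold replicate 1 (0.0833) or 2 (0.0709).

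Of 29 genes of lipoxygenases and prostaglandins, 2 were higher and 0 lower in KO. Aloxe3, an epidermis-type lipoxygenase, had signals of 2.92, 3.37 and 2.88 in WT and of 4.75, 5.0 and 5.22 in KO (1.93 ± 0.16, adjusted p = 1.93e-04). On the room temperature arrays it lay between 2.10 and 2.51, so only the KO cold arrays stood clearly above the median of all genes. Ptgds, which makes prostaglandin D2, stood at 5.24, 5.54 and 5.37 in WT and at 6.96, 6.58 and 7.97 in KO, 3.45-fold higher (1.79 ± 0.30, adjusted p = 0.0183). The prostaglandin transporter Slco2a1 was 2.53-fold higher (1.34 ± 0.24, adjusted p = 0.0249), with 6.07, 5.29 and 6.0 in WT against 7.02, 7.20 and 7.16. Ptgds and Slco2a1 did not pass without WT cold replicate 1 (adjusted p = 0.0888 and 0.0620), 2 (0.0598 and 0.0928) or 3 (0.0681 and 0.0580), nor did Slco2a1 without KO cold replicate 2 (0.0510) or 3 (0.0706).

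Among feedback genes of cytokine and growth hormone signalling through STAT5, 2 of the 21 measured on the list were lower in KO and 0 higher. Socs2 had signals of 9.89, 9.67 and 9.71 on the WT cold arrays and of 8.30, 8.56 and 8.80 on the KO cold arrays, 2.30-fold lower (-1.20 ± 0.18, adjusted p = 0.0114). At room temperature the order was the other way, with 6.16, 6.43 and 6.59 in WT and 7.33, 6.79 and 7.07 in KO. Its dimmer second probe set was lower in the cold as well (-1.03 ± 0.16, adjusted p = 0.0150). Cish stood at 5.58, 5.98 and 5.71 in WT and at 4.95, 4.95 and 4.68 in KO, 1.86-fold lower (-0.90 ± 0.17, adjusted p = 0.0287). A dimmer second probe set of Cish stood at -1.11 ± 0.38 (adjusted p = 0.211). Socs2 did not pass without WT cold replicate 1 (adjusted p = 0.0620), nor Cish without WT cold replicate 1, 2 or 3 (0.0758, 0.134 and 0.0968) or KO cold replicate 3 (0.0861).

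Heat shock proteins and their cochaperones fold proteins and return damaged ones to use. Of 37 measured genes 30 had a difference under 0, 3 passed as lower and 0 as higher. The list median was -0.35 against 0.00956 over all genes, of which 51.6% had a difference above 0. Most of the list is bright, and over its 33 members with a mean signal of 5 or more the median was -0.38, against -0.09 over the 8475 such genes. Ahsa2, a homologue of the activator of HSP90, had signals of 9.04, 8.33 and 8.27 in WT and of 6.88, 7.35 and 6.34 in KO, 3.22-fold lower (-1.69 ± 0.29, adjusted p = 0.0184). Serpinh1, the collagen chaperone HSP47, stood at 9.35, 9.31 and 9.24 in WT and at 8.44, 8.72 and 8.22 in KO, 1.79-fold lower (-0.84 ± 0.14, adjusted p = 0.0170). St13, an HSP70 cochaperone, stood at 9.77, 9.65 and 9.71 against 9.10, 9.24 and 8.85 (-0.65 ± 0.13, adjusted p = 0.0396). In all 3 the groups did not overlap. Dnaja4, an HSP40-type cochaperone, was 2.84-fold lower too (-1.5 ± 0.22, adjusted p = 0.0114), with 7.40, 6.95 and 7.28 in WT against 5.82, 6.18 and 5.12. Dnaja4 is not on the list, so the list counts, medians and means leave it out. Hspa4l stood at -1.15 ± 0.30 and did not pass (adjusted p = 0.107), but did without KO cold replicate 1 (0.0346).

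The mean of the heat shock list was 8.40, 8.28 and 8.38 on the WT cold arrays and 8.0, 8.23 and 7.65 on the KO cold arrays. KO replicate 2 lay close to WT and replicate 3 far below, and at room temperature the 6 means lay between 7.05 and 7.29. The count of 3 lower genes was 0 without WT cold replicate 1 or 2 or KO cold replicate 3, 1 without WT cold replicate 3 and 5 without KO cold replicate 2. The list median was -0.23 without KO cold replicate 3 and -0.12 with KO cold replicates 1 and 3 left out. Singly, Ahsa2 did not pass without WT cold replicate 1 (adjusted p = 0.0885) or 2 (0.0598) or KO cold replicate 3 (0.0606), nor Dnaja4 without WT cold replicate 1 (0.0620). Serpinh1 did not pass without WT cold replicate 1, 2 or 3 (0.0885, 0.0727 and 0.0578) or KO cold replicate 3 (0.0568), and St13 in 9 of 12 such fits, passing only without WT RT replicate 2 or 3 or KO cold replicate 2 (adjusted p up to 0.167).

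Proteasome subunits and assembly factors, which break down ubiquitin-tagged proteins, had 2 of 46 measured genes lower and 0 higher in KO. A difference under 0 was seen for 41 of the 46 and above 0 for 5, while 51.6% of all genes had one above 0. The list median was -0.25. Over the 42 bright members it was -0.28, against -0.09 over all bright genes. The list mean was 7.81, 7.72 and 7.74 on the WT cold arrays and 7.28, 7.54 and 7.46 on the KO cold arrays, without overlap. Psmd10, which encodes the assembly chaperone gankyrin, was 1.82-fold lower (-0.86 ± 0.17, adjusted p = 0.0407), with 7.51, 7.71 and 7.63 in WT against 6.50, 6.87 and 6.89. Psmc2, an ATPase of the regulatory particle, was 1.64-fold lower (-0.72 ± 0.15, adjusted p = 0.0495), with 7.76, 7.38 and 7.54 against 6.75, 6.89 and 6.89. A dimmer second probe set of Psmc2 stood at 0.08 (adjusted p = 0.899). Psmd5 (-0.62 ± 0.14, adjusted p = 0.0657) and Psmc4 (-0.67 ± 0.16, adjusted p = 0.0727) did not pass, but both did among bright genes alone (0.0288 and 0.0330), where 5 members of the list were lower. Psmd10 passed in only 2 of the 12 fits that left out 1 array (without WT RT replicate 2 or 3) and Psmc2 in 1 (without KO RT replicate 3), with adjusted p-values up to 0.160 and 0.202. Without any 1 of the 6 cold arrays the count was 0, with a list median between -0.35 and -0.22, and after cyclic loess it was 1.

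**Figure D3:**
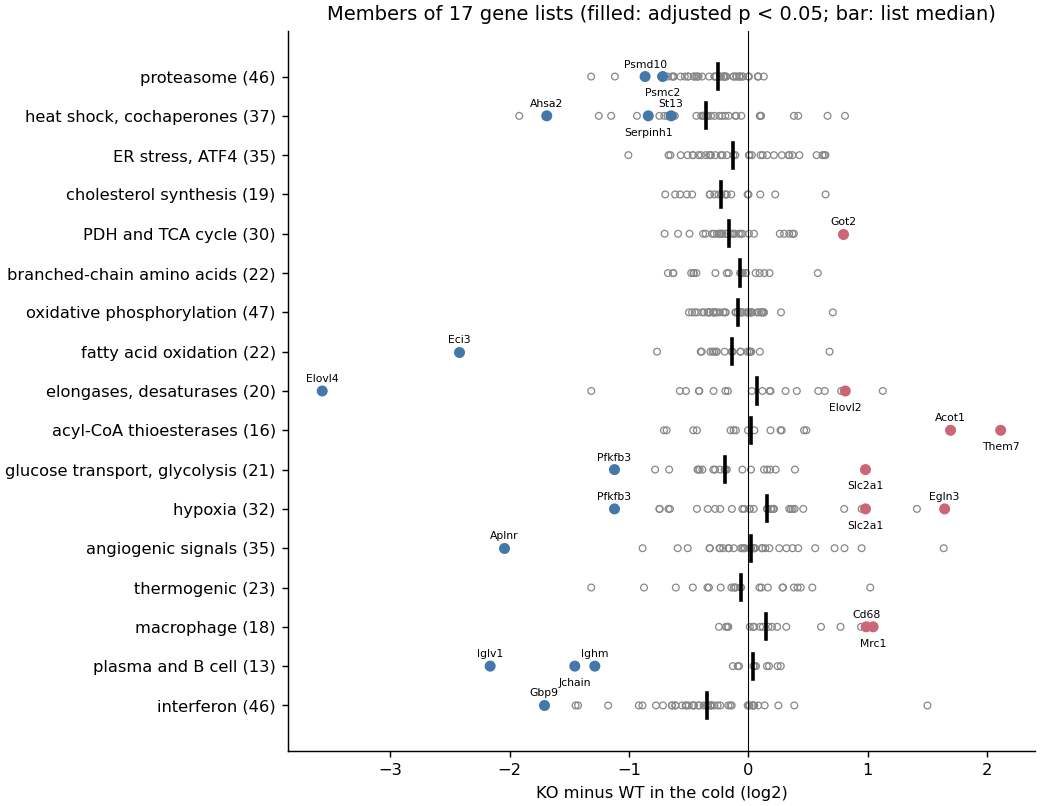
Difference between KO and WT in the cold (log2, horizontal axis) for each measured member of 17 gene lists (number of members in brackets), with a black bar at the list median. Filled points passed at an adjusted p under 0.05, blue if lower and red if higher in KO, and open points did not. Most open points of the proteasome and heat shock lists lie left of 0, while the extreme points Elovl4, Eci3, Aplnr and Them7 stand apart from the rest of their lists.

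Of 13 measured genes of plasma and B cells 3 passed as lower in KO and 0 as higher, 7 had a difference above 0, and the list median was 0.04. Only 1 of the 13 was bright and 9 had a mean signal under the median of all probe sets. The signs and the list median thus rest mostly on genes with little signal. Ighm, the heavy chain of IgM, had signals of 9.11, 9.04 and 8.30 in WT and of 7.83, 7.53 and 7.24 in KO, 2.44-fold lower (-1.29 ± 0.22, adjusted p = 0.0211). Jchain, the joining chain of IgM and IgA, stood at 5.71, 5.85 and 4.96 in WT and at 3.97, 4.24 and 3.95 in KO, 2.74-fold lower (-1.45 ± 0.25, adjusted p = 0.0184). Iglv1, a light chain variable segment, stood at 6.36, 4.52 and 5.51 against 3.07, 3.67 and 3.16 (-2.16 ± 0.45, adjusted p = 0.0483). The heavy chain segment Igh-VS107 was lower by a like amount (-1.31 ± 0.24, adjusted p = 0.0249). Its dimmer second probe set, with a mean signal of 2.08, stood at 0.22 (adjusted p = 0.890). In these genes the groups did not overlap. Segments of this kind resemble each other, so their probe sets are not independent. Of 6 dimmer Ighm probe sets, 2 also passed as lower, and only the dimmest lay above 0, at 0.17 (adjusted p = 0.858). The T cell list, of interest for a gene known from CD4 T cells, had 0 of 18 genes past the test. Its means overlapped, with 3.25 to 3.80 in WT and 3.16 to 3.55 in KO. Only 2 of the 18 genes were bright and 6 had a mean signal under the median of all probe sets. A difference in T cells could therefore be missed here.

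The antibody calls were lost in several fits that left out 1 array. Ighm and Jchain did not pass without WT cold replicate 1 (adjusted p = 0.104 and 0.0953) or 2 (0.101 and 0.0882) or KO cold replicate 3 (0.0708 and 0.0658). Igh-VS107 did not pass without WT cold replicate 1 (0.111) or 2 (0.112) or KO cold replicate 1 (0.0562) or 3 (0.0658). Iglv1 passed only without WT RT replicate 3, KO RT replicate 3 or WT cold replicate 2, with adjusted p-values up to 0.176 in the other 9 fits.

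Of 46 interferon-induced genes and GTPases 35 had a difference under 0, 1 passed as lower and 0 as higher. The list median was -0.34, and 51.6% of all genes had a difference above 0. Of the 46 genes 28 were bright, and the median over all bright genes was -0.09. The list averaged 5.29, 5.81 and 5.47 on the WT cold arrays and 4.98, 5.34 and 5.15 on the KO cold arrays, so the groups overlapped, with WT cold replicate 2 the highest. Gbp9, an interferon-induced guanylate-binding protein, had signals of 4.56, 4.94 and 4.72 on the WT cold arrays and of 2.64, 3.30 and 3.15 on the KO cold arrays (-1.71 ± 0.23, adjusted p = 0.00701), without overlap. It passed in each of the 12 fits that left out 1 array. At room temperature all 6 arrays were higher, between 5.76 and 6.70. Gbp9 has near-identical family members, and how far the probe set tells them apart was not tested. The chemokine Cxcl9 stood at -1.17 ± 0.29 and did not pass (adjusted p = 0.0824), but did among bright genes alone (0.0413) and without KO RT replicate 2 (0.0372).

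Of 18 macrophage markers 2 were higher in KO and 0 lower, with a median of 0.15. Mrc1, the mannose receptor, had signals of 6.85, 7.0 and 6.97 in WT and of 7.60, 7.83 and 8.52 in KO, 2.07-fold higher (1.05 ± 0.20, adjusted p = 0.0328). Cd68, a lysosomal protein of macrophages, stood at 6.88, 7.31 and 7.09 in WT and at 7.84, 7.90 and 8.51 in KO, 1.98-fold higher (0.99 ± 0.20, adjusted p = 0.0466). Both were highest on KO cold replicate 3. The 18 markers averaged 5.89, 6.30 and 6.08 on the WT cold arrays and 6.07, 6.34 and 6.66 on the KO cold arrays, which overlap, and Itgam (0.77, adjusted p = 0.140) and Lyve1 (0.61, adjusted p = 0.230) did not pass, though Itgam did without KO cold replicate 1 (0.0261). The 16 neutrophil markers had a mean of 2.19 to 2.54 in WT and of 2.25, 2.65 and 4.32 in KO, so KO replicate 3 stood apart there as well, with 0 genes past the test. The part of these cells in the other differences was not tested. Mrc1 did not pass without WT RT replicate 1 (0.0516), WT cold replicate 1, 2 or 3 (0.134, 0.102 and 0.108) or KO cold replicate 3 (0.0524). Cd68 passed only without WT RT replicate 2 or KO cold replicate 1 or 2, with adjusted p-values up to 0.192.

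**Figure D4:**
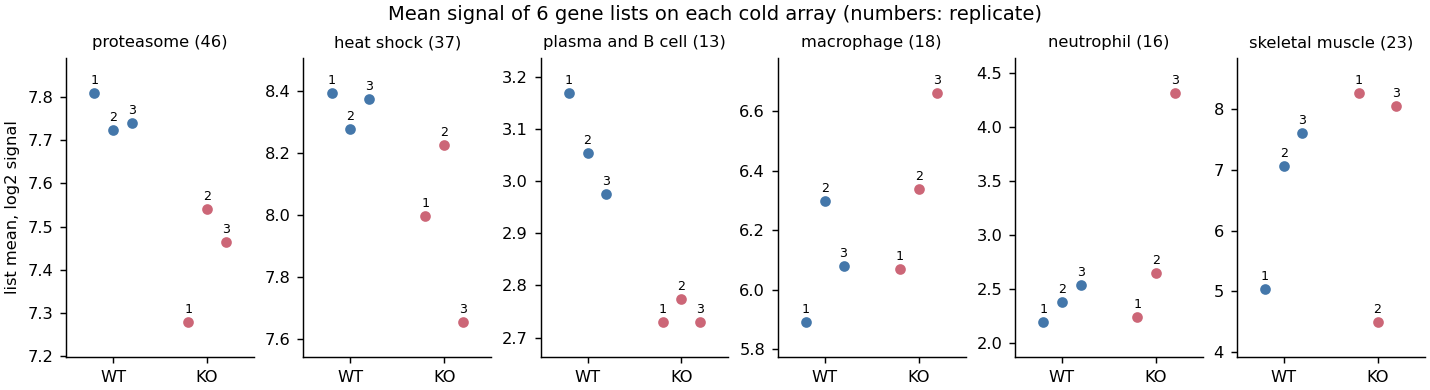
Mean log2 signal of 6 gene lists (number of genes in brackets) on each cold array, 1 point per array with its replicate number, WT in blue and KO in red; the vertical axes do not start at 0. The proteasome, heat shock and plasma and B cell means do not overlap between the groups, the macrophage and skeletal muscle means do, and the neutrophil mean is high on KO replicate 3 only.

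Of 23 brown adipocyte thermogenic genes 0 passed in the cold at an adjusted p under 0.05 by limma, and the median was -0.06. The unadjusted p was under 0.05 for 8 of them (4 in each direction) and for 3197 of all 22180 genes. Ucp1 stood at 12.90, 12.95 and 12.81 in WT and at 12.80, 12.82 and 12.73 in KO, which is close to the highest signals of the arrays. Its difference was -0.11, with a 95% interval from -0.42 to 0.20. Dio2, which converts thyroid hormone to its active form, stood at 11.66, 11.66 and 11.75 in WT and at 11.56, 11.70 and 11.38 in KO, a difference of -0.14 with an interval from -0.61 to 0.32. The groups overlapped for both genes. Ppargc1a, a coactivator of mitochondrial genes, stood at 11.63, 11.49 and 11.50 in WT and at 12.27, 11.90 and 12.06 in KO, which did not overlap but missed the test (0.54 ± 0.12, adjusted p = 0.0699). Cidea (-0.06), Prdm16 (0.44), Ebf2 (0.41) and Fgf21 (-0.46) had adjusted p-values of 0.212 or more. The count of 0 depended on the setting. With only bright genes tested, Ppargc1a (adjusted p = 0.0303) passed as higher and Elovl3 (0.0419) as lower. Ppargc1a also passed with a trended and robust spread (0.0215) and without KO cold replicate 2 (0.0485), and Elovl3 without KO RT replicate 3 (0.0263). With array weights 1 gene of the list passed as lower.

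Further genes were far higher in KO. Cdhr5, a mucin-like cadherin, had signals of 5.49, 5.19 and 5.48 in WT and of 7.87, 7.74 and 8.06 in KO, 5.68-fold higher (2.50 ± 0.13, adjusted p = 5.40e-06). Prg4, the lubricant glycoprotein lubricin and the only 1 of 29 matrix genes that passed, stood at 4.89, 4.87 and 4.75 in WT and at 6.23, 6.49 and 7.67 in KO, 3.89-fold higher (1.96 ± 0.29, adjusted p = 0.0114). Prg4 did not pass without WT cold replicate 1 (adjusted p = 0.0593) or 2 (0.0519). Both genes separated the groups, Cdhr5 with little spread and Prg4 with the highest value on KO replicate 3. Cacng7, of the gamma subunits of calcium channels, differed by 1.72 ± 0.22 (adjusted p = 0.00537), and the sialyltransferase St8sia6 by 1.39 ± 0.14 (adjusted p = 8.85e-04). Baiap2l1, which bends membranes along actin, differed by 1.30 ± 0.17 (adjusted p = 0.00606). Cdhr5, Cacng7, St8sia6 and Baiap2l1 passed in each of the 12 fits that left out 1 array.

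Further genes were higher in KO with calls that were lost in several fits that left out 1 array. They were the protease gene Prss12 (1.63), Hpd of tyrosine breakdown (1.5), the kinase gene Ptk2b (1.38), the aquaporin gene Aqp11 (1.34), the cytochrome oxidase isoform gene Cox6b2 (1.34), Ccnjl (1.30) and the integrin gene Itga3 (1.29). None of Prss12, Hpd, Ptk2b, Cox6b2, Ccnjl or Itga3 passed without WT cold replicate 1 (adjusted p = 0.0953, 0.0845, 0.0834, 0.0598, 0.0888 and 0.0793), 2 (0.0829, 0.145, 0.108, 0.0795, 0.102 and 0.0541) or 3 (0.0578, 0.116, 0.117, 0.0650, 0.0580 and 0.0614). Without KO cold replicate 3, Prss12 (0.0693), Hpd (0.0978), Ptk2b (0.0855), Cox6b2 (0.0616) and Itga3 (0.0524) did not pass, and without KO cold replicate 2, Hpd (0.0598) and Ptk2b (0.0622) did not. Aqp11 did not pass without WT cold replicate 1 (0.129) or 3 (0.134) or KO cold replicate 1, 2 or 3 (0.0529, 0.0546 and 0.0917).

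Among genes lower in KO, Tectb, which encodes beta-tectorin of the inner ear, had signals of 6.0, 6.16 and 6.33 in WT and of 4.71, 4.36 and 4.10 in KO, 3.43-fold lower (-1.78 ± 0.17, adjusted p = 6.45e-04). The 6 room temperature arrays lay between 3.86 and 4.29, so the WT cold arrays alone stood above them by more than 1. The mismatch repair gene Mlh3 was lower by 2.94-fold (-1.55 ± 0.21, adjusted p = 0.00640), and Mal2, of vesicle transport in polarised cells, by 2.54-fold (-1.34 ± 0.16, adjusted p = 0.00365). Hebp2, of the heme-binding protein family, stood at 5.34, 5.01 and 5.32 in WT and at 3.97, 3.58 and 3.61 in KO (-1.5 ± 0.18, adjusted p = 0.00365). Hpx, the heme carrier hemopexin, stood at 5.66, 5.61 and 5.86 in WT and at 4.23, 4.96 and 4.36 in KO, 2.28-fold lower (-1.19 ± 0.20, adjusted p = 0.0170). It was the only 1 of the 19 hepatocyte genes that passed, and at room temperature its 6 signals were between 2.60 and 3.14. Syt14 was lower near the median level of all genes (-1.32 ± 0.16, adjusted p = 0.00387). Hpx did not pass without WT cold replicate 1, 2 or 3 (adjusted p = 0.0751, 0.0598 and 0.0762) or KO cold replicate 3 (0.0620), while Tectb, Mlh3, Mal2, Hebp2 and Syt14 passed in each of the 12 fits.

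The ion transporter gene Slc12a2, which encodes the sodium, potassium and chloride cotransporter NKCC1, had signals of 10.26, 10.06 and 10.13 in WT and of 9.29, 8.72 and 8.22 in KO, 2.65-fold lower (-1.40 ± 0.22, adjusted p = 0.0139). The annexin gene Anxa8 stood at 5.58, 5.98 and 4.75 against 2.86, 3.86 and 3.49 (-2.03 ± 0.32, adjusted p = 0.0140), and the sialidase gene Neu3 at 6.12, 6.11 and 5.71 against 4.64, 4.95 and 4.17 (-1.40 ± 0.22, adjusted p = 0.0140). The groups did not overlap in any of the 3. Without WT cold replicate 1 or 2, the adjusted p-values were 0.0746 and 0.0545 for Slc12a2, 0.0751 and 0.0598 for Anxa8 and 0.0751 and 0.0662 for Neu3. The other genes among the largest differences below WT were Trim67 (-1.62), Syt12 (-1.34), the homeobox gene Hoxc6 (-1.34), Cdkn1c, an inhibitor of cyclin-dependent kinases (-1.32), and Ccdc85a (-1.32). Ccdc85a did not pass without WT cold replicate 1 (0.0518), and Trim67 and Cdkn1c not without WT cold replicate 1 (0.0620 and 0.119), 2 (0.0598 and 0.0698) or 3 (0.0681 and 0.138) or KO cold replicate 3 (0.0599 in both). Syt12 passed only without KO RT replicate 3 or KO cold replicate 1 or 2, and Hoxc6 only without WT RT replicate 1 or 2 or KO RT replicate 3, with adjusted p-values up to 0.173 and 0.185.

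The knockout was also compared with WT at room temperature. Its differences come from 6 other arrays than the cold ones, while both tests share the spread estimated over all 12. There 122 of 22180 genes (0.55%) passed, 59 (0.266%) as higher and 63 (0.284%) as lower. Of the 202 genes that passed in the cold, 14 were higher and 13 lower at both temperatures, which together are 13.4% of the cold calls and 22.1% of the room temperature calls, and 2 passed in opposite directions. The 80 genes higher in the cold had a median difference of 1.13 there and of 0.32 at room temperature, and the 122 lower genes of -0.95 and -0.19. The first value of each pair was fixed by the selection in the cold. A threshold passed in the cold and missed at room temperature does not show that the effects differ, and the interaction, the difference between both effects, passed for 6 genes (0.0271%), with 5 above 0 (0.0225%) and 1 below (0.00451%). An unadjusted p under 0.05 was found for 2324 genes.

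Genes with close to the same difference at both temperatures were Dcst1 (3.70 in the cold and 3.71 at room temperature), Them7 (2.12 and 2.13), Cdhr5 (2.50 and 2.32), Eci3 (-2.42 and -2.19) and Anxa8 (-2.03 and -1.85). Elovl4 (-3.57 and -0.72), Aplnr (-2.05 and -0.03), Tectb (-1.78 and -0.11), Gbp9 (-1.71 and 0.21) and Prg4 (1.96 and 0.02) passed in the cold and not at room temperature. For Elovl4 the interaction was -2.84 ± 0.45 and just missed the test (adjusted p = 0.0570). Of the cold calls 4 also passed the interaction, namely Aloxe3, Tmem82, Socs2 and the olfactory receptor gene Olfr519. The proteasome list had a median of 0.01 at room temperature and of -0.25 in the cold, the heat shock list 0.09 and -0.35, the interferon list 0.50 and -0.34 and the macrophage list 0.70 and 0.15. On the KO room temperature arrays the interferon mean was 6.39 for replicate 2 and 5.41 and 5.46 for the others, against 5.19 to 5.39 in WT. These differences between list medians were not tested.

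**Figure D5:**
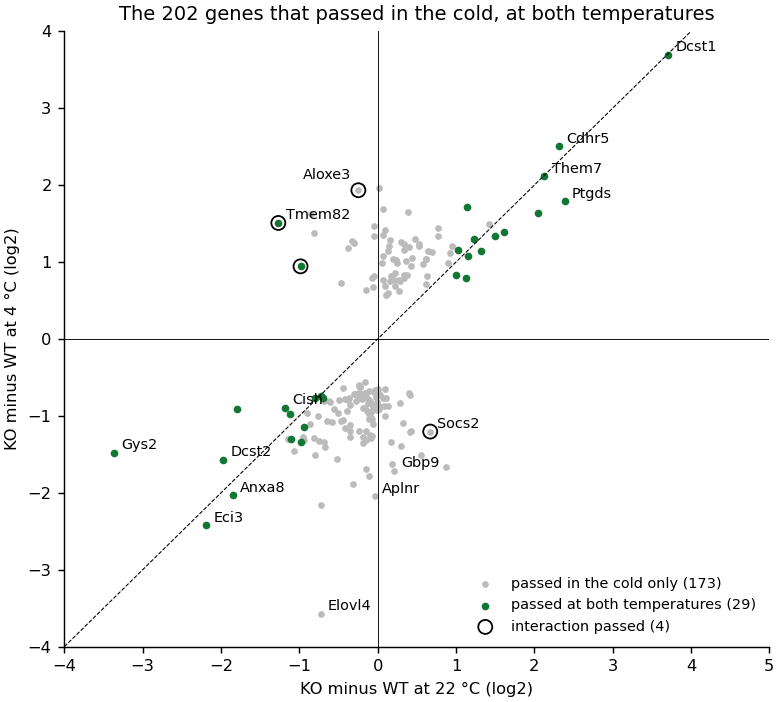
Difference between KO and WT at 4 °C (vertical axis) against that at 22 °C (horizontal axis), both in log2 units, for the 202 genes that passed in the cold. Green points passed at both temperatures (29), grey points in the cold only by the threshold (173), and black rings mark the 4 genes whose interaction passed. The dashed line marks equal differences, with Dcst1, Cdhr5, Them7 and Eci3 near it and Elovl4, Aplnr and Aloxe3 far from it.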

How the data were processed

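The authors deposited log2 signals of whole-transcript arrays, hybridised with cDNA of 400 ng total RNA labelled with biotin, per the labels' protocols. The submitters' processing notes name oligo, RMA and limma, with no versions, array parameters or genome build given in the sources used here. RMA corrects the background, gives the arrays a common distribution and sums up each probe set, so a shift shared by all genes cannot be seen. Groups came from the titles.

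Of 41345 probe sets, the 23521 with exactly 1 annotated gene symbol were used, and the one with the highest mean over 12 arrays stood for its gene, giving 22180 genes. Dim genes were kept. The limma package (3.58.1, R 4.3.3) fitted the 12 arrays with a mean for each group (lmFit and eBayes). Contrasts were KO minus WT in the cold, at room temperature, and their difference (interaction). Tests were two-sided with Benjamini-Hochberg adjustment over all genes, and a gene passed if its adjusted p was under 0.05.

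The genes and lists were chosen with earlier results of these data known. Of 1047 memberships in 40 lists 957 were measured, covering 33 of the 202 genes that passed. The rule named Zbtb7b, Dcst1, Dcst2, the 25 largest differences in each direction that passed without overlap (no predicted genes, small RNAs, pseudogenes or olfactory receptors), list members that passed, up to 4 members with the smallest p per list, the 12 largest interactions that passed in each direction, and Cidea, Dio2, Ebf2, Elovl3, Fgf21, Ppargc1a, Prdm16 and Ucp1.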

Additional observations from a re-analysis of the deposited data

Results flagged for a closer look

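For 6 genes the knockout effect in the cold differed from that at room temperature by the interaction test (limma, all 12 arrays). Dio2 had a difference of 3.41 ± 0.30 (SE, adjusted p = 0.00190) between both effects, with KO lower at room temperature and the groups overlapping in the cold. Tmem82, a transmembrane protein gene, stood at 3.50, 2.87 and 3.27 in WT and 2.11, 1.54 and 2.19 in KO at room temperature, and at 4.90, 5.17 and 5.15 in WT and 6.87, 6.78 and 6.11 in KO in the cold. The order of the genotypes turned, and the interaction was 2.78 ± 0.33 (adjusted p = 0.0136). Aloxe3 had an interaction of 2.18 ± 0.22 (adjusted p = 0.00475), with 1.93 in the cold and -0.25 at room temperature. Socs2 had one of -1.87 ± 0.25 (adjusted p = 0.0301), lower than WT in the cold and with a difference of 0.67 at room temperature that did not pass (adjusted p = 0.132). The metalloprotease gene Adam12 differed by 1.17 ± 0.17 (adjusted p = 0.0453), with -0.16 in the cold and -1.33 at room temperature. The olfactory receptor gene Olfr519 differed by 1.93 ± 0.21 (adjusted p = 0.00483), with all 4 group means under the median of all genes. Over the 12 fits that each left out 1 array, Dio2, Aloxe3 and Olfr519 passed in each, Tmem82 missed in 4 (adjusted p up to 0.0580), Socs2 in 7 (up to 0.123) and Adam12 in 10 (up to 0.135). The fits that Tmem82 missed left out WT RT replicate 1 or WT cold replicate 1, 2 or 3. Socs2 missed without WT RT replicate 1 or 2, KO RT replicate 3, WT cold replicate 1, 2 or 3 or KO cold replicate 2, and Adam12 passed only without KO cold replicate 1 or 3.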

How the results depend on the processing

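The number of genes that passed in the cold was 202, and 397 when only bright genes were tested (mean signal 5 or more), 307 with array weights, 32 from the 6 cold arrays alone, 10 for a change of at least 1.5-fold and 12 without KO cold replicates 1 and 3. It was 36 to 289 without 1 array. It stayed within 1.5 times of 202 with probe sets averaged per gene (168), cyclic loess (210), median centring (202, 64 higher and 138 lower), a trended and robust spread (277) and the skeletal muscle covariate (229). At room temperature it was 122, with 14 for a change of at least 1.5-fold, 37 from the 6 arrays alone and 50 to 164 without 1 array. For the interaction it was 6, with 3 for the mean of probe sets, 26 for bright genes, 17 after centring, 19 with a trended and robust spread, 22 with array weights, 1 for 1.5-fold, 10 with the muscle covariate and 3 to 20 without 1 array. With the replicate number as a block 140 genes passed in the cold. Same-numbered WT and KO cold arrays did not deviate together from their group means (correlations of -0.27, -0.24 and 0.03 over bright genes), so the numbers were not taken as pairs. Cold arrays of differing number had correlations from -0.37 (WT replicate 3, KO replicate 2) to 0.51 (WT replicate 1, KO replicate 2). What such arrays share was not tested, and room temperature arrays were not compared in this way. Without KO cold replicates 1 and 3, Dio2 stood at 0.013, Cidea at 0.049 and Fgf21 at 0.21. Over the fits without 1 array Cidea ranged from -0.115 to 0.048. The cause of these changes was not tested.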
